A study of Mus musculus with 4 samples.

Results

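Eos, encoded by Ikzf4, is a zinc finger transcription factor of the Ikaros family, and Helios, encoded by Ikzf2, is its relative. Both are made by regulatory T (Treg) cells, a CD4+ lineage marked by CD25 that holds immune responses in check. Chromatin immunoprecipitation with sequencing (ChIP-seq), in which an antibody recovers the DNA that a protein occupies in fixed chromatin, gave lists of peaks for each factor. The regions described here are the anti-Eos peaks that lay away from protein-coding genes and had no listed anti-Helios summit beside them. A peak was taken when its summit, the position of its highest signal, had no anti-Helios summit within 100 bp, lay in no protein-coding gene of the RefSeq table of GRCm38.p6, and was more than 1 kb from every protein-coding gene start and end. Members were thus chosen by the measured summit positions of both lists. Of 1106 anti-Eos peaks, 239 met this rule (21.6%, 95% Wilson interval 19.3 to 24.1), and they are called distal Eos-only peaks below. These counts describe the selection and are not a result.

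Both lists came from wild-type spleens. Cells labelled Treg were taken with an isolation kit for CD4+CD25+ cells, their chromatin was fixed with 1% formaldehyde in 10 min, and 6 µg of antibody against Eos or Helios was used. The study also holds 2 libraries from mice with floxed Eos and Cre under Foxp3 control, which deletes Eos in Foxp3-expressing cells; these were not analysed here. Each group was 1 library, and the sources used here do not give strain, age, sex or how many animals were pooled. With 1 library there is no replicate error, so intervals below cover counting within that library only and no p-value is given. "Eos-only" refers to the listed peaks: an anti-Helios signal too weak to be listed would not be seen. Peak lists hold no expression, so the cell label could not be checked against RNA markers.

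Sites away from protein-coding genes include enhancers, stretches of DNA that bind transcription factors and act on a gene at a distance, insulators, and the promoters of long non-coding RNA (lncRNA) genes. Ikaros family proteins bind DNA through zinc fingers that read a core of GGGAA and are known as regulators of lymphocyte genes, acting with chromatin-remodelling and corepressor complexes. In Treg cells, interleukin-2 signalling through JAK1 and STAT5, T cell receptor signalling and costimulation through CD28 sustain the lineage.

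Among the few members for which promoter sequence was at hand, those at lncRNA starts show the DNA itself. The RefSeq promoter windows of GRCm38.p6, from 250 bases before to 50 bases after a gene start, overlapped 11 distal Eos-only peaks, at 11 lncRNA genes, and 8 of these held the summit. The stretches shown are the parts of 4 windows that lie inside the deposited peak, for members named for their fold, their listed neighbour or their place in a run of summits. They read 5′ to 3′ on the strand of the lncRNA, and capitals mark GGGAA (or its reverse complement TTCCC) and TGTGGT (or ACCACA), the core letters that Ikaros and RUNX proteins are known to read. Gm9875, upstream of Vim, is at chr2:13558653-13558922 on the plus strand, C730014E05Rik at chr16:23175030-23175157 on the plus strand, Gm51814, upstream of Tnfaip3, at chr10:19062587-19062720 on the plus strand, and Gm19497, between Fmod and Btg2, at chr1:134060898-134061162 on the minus strand.
Gm9875: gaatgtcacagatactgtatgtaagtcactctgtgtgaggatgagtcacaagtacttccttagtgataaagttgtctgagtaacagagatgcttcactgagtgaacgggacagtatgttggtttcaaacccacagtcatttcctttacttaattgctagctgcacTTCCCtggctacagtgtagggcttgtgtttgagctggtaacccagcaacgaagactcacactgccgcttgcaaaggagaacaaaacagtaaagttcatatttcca
C730014E05Rik: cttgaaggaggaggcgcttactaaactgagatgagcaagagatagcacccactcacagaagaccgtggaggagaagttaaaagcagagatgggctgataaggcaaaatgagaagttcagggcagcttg
Gm51814: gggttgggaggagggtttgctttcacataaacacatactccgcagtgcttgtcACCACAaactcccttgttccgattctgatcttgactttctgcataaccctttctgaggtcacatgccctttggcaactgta
Gm19497: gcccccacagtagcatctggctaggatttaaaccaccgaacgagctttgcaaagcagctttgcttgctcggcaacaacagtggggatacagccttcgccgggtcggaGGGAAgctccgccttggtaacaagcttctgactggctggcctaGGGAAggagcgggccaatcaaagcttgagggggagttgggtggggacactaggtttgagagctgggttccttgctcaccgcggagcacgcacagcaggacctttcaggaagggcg

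The Gm9875 stretch holds TTCCC at base 166, beside the summit at base 158, which is 93 bp before the annotated lncRNA start. The Gm19497 stretch holds 2 copies of GGGAA, the one nearer its 5′ end at base 108, with the summit at base 233, which is 17 bp after the start. The Gm51814 stretch holds no GGGAA on either strand but has ACCACA at base 54, with the summit at base 82. The C730014E05Rik stretch holds neither set of letters, and its summit lay outside the window, 276 bp before the start. The next counts are of whole windows, with bases outside the peak included. Over all 11 windows, searched on both strands, GGGAA occurred in 7 (63.6%, Wilson 35.4 to 84.8), against 62.7% of all 32851 RefSeq promoter windows of the same length. In the windows of Gm40441, Gm40746 and Gm30601 these letters lay only outside the peak, as did the TGTGGT match of C730014E05Rik counted next. TGTGGT occurred in 3 of 11 (27.3%, 9.75 to 56.6) against 16.8% of all windows, and TGANTCA, the AP-1 letters, in 1 (9.09%, 1.62 to 37.7) against 7.81%. TTCNNNGAA, the STAT letters, which can share bases with GGGAA, occurred in 1 window (9.09%) against 8.30%, and the E-box CANNTG in 9 (81.8%, 52.3 to 94.9) against 72.3%. With 11 windows, each share has an interval that holds the share of all promoters. A match is a description of letters, not of a binding site.

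A distal Eos-only peak at chr11:87756579-87756739 lay just upstream of the hairpin of Mir142, the blood-cell microRNA gene, with its summit 169 bp from the hairpin; it had a fold of 5.54 from 15 fragments (exact Poisson interval 8.40 to 24.7). The mature sequences show the seeds, bases 2 to 8, in capitals, because this was the closest that any member came to a microRNA hairpin. Mir142b is annotated on the opposite strand of the same hairpin, 146 bp from the summit.
mmu-miR-142a-5p: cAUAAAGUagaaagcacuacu
mmu-miR-142a-3p: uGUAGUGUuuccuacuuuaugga
mmu-miR-142b: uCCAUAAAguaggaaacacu

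The 3 seeds differ from each other, so a single shared seed does not group them. This summit ended a run of 3 anti-Eos summits over 4.95 kb before Tspoap1. The other peaks of that run, with folds of 8.66 and 8.10, had anti-Helios summits within 100 bp, whereas the nearest anti-Helios summit of the peak at Mir142 was 2.02 kb away. The hairpins next nearest to a distal Eos-only summit were those of Mir8113, 7006 bp away near Cd27, and Mir6367, 6049 bp away near Ifngr2.

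The fold enrichment of a peak is the authors' own ratio over background. Across the distal Eos-only peaks it had a median of 6.98 (95% order-statistic interval 6.58 to 7.27), quartiles of 5.71 and 8.62 and a range of 3.92 to 18.8. The Eos-only peaks within 1 kb of a protein-coding gene start or end had a median of 7.20 (6.84 to 7.62, n = 304). Those elsewhere in gene bodies had 6.88 (6.69 to 7.13, n = 296), and the intervals of all 3 classes overlapped. Anti-Eos peaks with an anti-Helios summit within 100 bp had a median of 9.19 (8.66 to 9.65, n = 267), above the interval of the distal Eos-only peaks. By height, then, the distal sites resembled the other Eos-only peaks and were lower than the peaks shared with Helios. The classes were set by whether an anti-Helios summit was listed, and weak anti-Helios signal is not listed. How far the lower median follows from that rule was not tested.

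**Figure D1:**
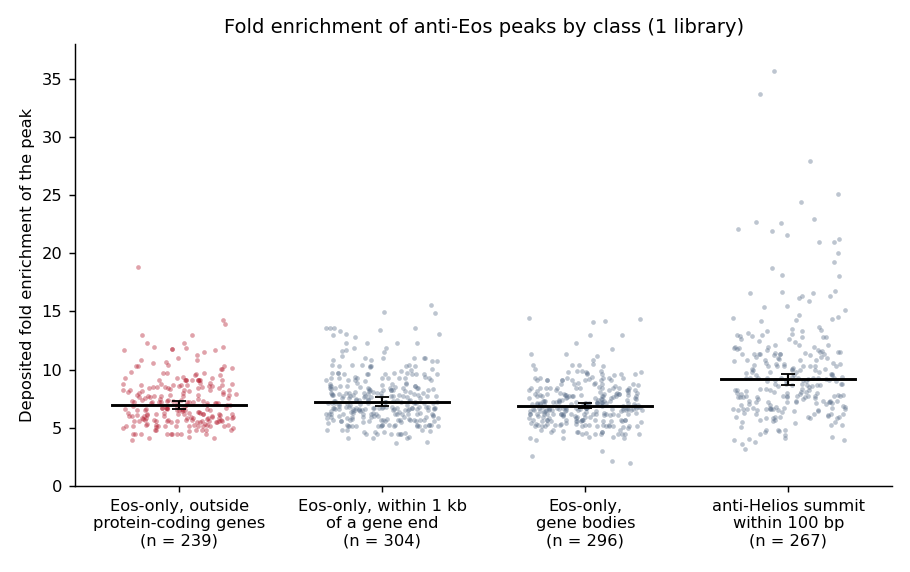
Deposited fold enrichment (y axis, linear from 0) of every anti-Eos peak of the wild-type library, split into 4 classes (x axis); each point is 1 peak, wide bars are medians and whiskers their 95% order-statistic intervals. The median of the 239 distal Eos-only peaks is 6.98, against 7.20 and 6.88 in the other Eos-only classes and 9.19 where an anti-Helios summit lies within 100 bp. In the class label, a gene end is a start or an end.

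The depth behind each peak was low. A median of 13 fragments (range 7 to 68) was recovered under a distal Eos-only summit from the deposited fold and p-value, over a local background of 0.923 control fragments, so that folds of different peaks can coincide exactly. Peaks were narrow, with a median width of 168 bp (115 to 594). The share with a −log10 q of at least 5 was 66.5% (60.3 to 72.2), against 70.8% of the other Eos-only peaks. That difference of −4.31 percentage points had a Newcombe interval of −11.4 to 2.51, so a difference was not detectable at this depth. A fold of at least 10 was reached by 28 members, the lowest of them, near Pag1, at rank 195 of the 1106 anti-Eos peaks. Of the 100 highest anti-Eos folds 12 were distal Eos-only peaks, which made up 21.6% of all anti-Eos peaks. A high local background, above 3 control fragments, occurred at 2 members: chr17:3084071-3084538, near the pseudogene Pisd-ps2, with a fold of 6.06 from 68 fragments over 11 control fragments, and chr10:19188408-19188646, in the lncRNA Gm20139 near Olig3, with a fold of 4.20 from 23 fragments over 5 control fragments. The former also lay 169 bp from an anti-Helios summit.

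The highest fold, 18.8 from 28 fragments (18.6 to 40.5), was at chr12:54710624-54710816, between Eapp (E2F-associated phosphoprotein) and Snx6, near the small nuclear RNA gene Gm22634 and the pseudogene Gm2395. Next came 14.3 from 21 fragments (13.0 to 32.1) before the start of Lrpprc, which encodes a mitochondrial RNA-binding protein. It was followed by 13.9 from 22 fragments (13.8 to 33.3) at 1.66 kb before the start of Gfpt1, the rate-limiting enzyme of hexosamine synthesis. The fragment intervals of these 2 peaks overlapped that of the highest. The Gfpt1 peak opened a run of 3 anti-Eos summits over 1.45 kb, none with an anti-Helios summit within 100 bp, of which the others lay 520 and 213 bp from the gene start with folds of 5.84 and 9.65.

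The next highest included peaks beside the T cell surface receptor genes Cd27 and Cd28, among genes of other roles. A peak 4.68 kb before the start of Cd27, a costimulatory receptor of the tumour necrosis factor receptor family, had a fold of 13.0, and a peak 3.83 kb from Cd28 had 12.3 from 22 fragments. A peak 205 kb beyond the end of Foxo1, the transcription factor that directs naive T cell homing and survival, had 12.3 from 18 fragments. It was 427 kb from Cog6 on its other side, so it lay outside the 100 kb used below to assign genes. Lrrc8c, a subunit of the volume-regulated anion channel, was the nearest gene of 2 peaks less than 1 kb apart, with folds of 13.0 and 11.0. The peak at the lncRNA Gm9875, midway between Trdmt1 (14.0 kb) and Vim (15.5 kb), had 11.9 from 19 fragments and was followed by 3 anti-Eos summits at the Vim start.

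The remaining members of the 15 highest were next to genes of varied roles. Arl4d, a small GTPase, had a peak of 11.9 over the U2 small nuclear RNA gene Rnu2-10. Arhgap25, a Rac regulator of blood cells, had a peak of 11.8 at 8.98 kb before its start. Zfp518b and Coa7 each had 11.8, Atp6v1g3 and Camkmt 11.7, and Tmem154 11.5. The fragments behind these 7 peaks ranged from 17 to 22, so their order is not resolved by counting error.

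The distal Eos-only summits were closer to protein-coding genes than the stretch of genome they could occupy. The median distance to the nearest protein-coding start or end was 19.2 kb (14.5 to 25.0), and 10% to 90% of summits lay between 3.08 and 161 kb. Within 5 kb were 20.1% of summits (15.5 to 25.6) against 6.99% of the eligible genome, and within 10 kb 32.2% (26.6 to 38.4) against 13.5%. Within 50 kb were 73.6% (67.7 to 78.8) against 37.8%, and within 100 kb 84.9% (79.9 to 88.9) against 51.3%. Here the eligible genome is the 1635 Mb, 60.5% of the span between annotated genes at the ends of each chromosome, where a summit could lie and meet the distance rule, with unmappable sequence left in. All 4 intervals lay above the share of the genome.

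**Figure D2:**
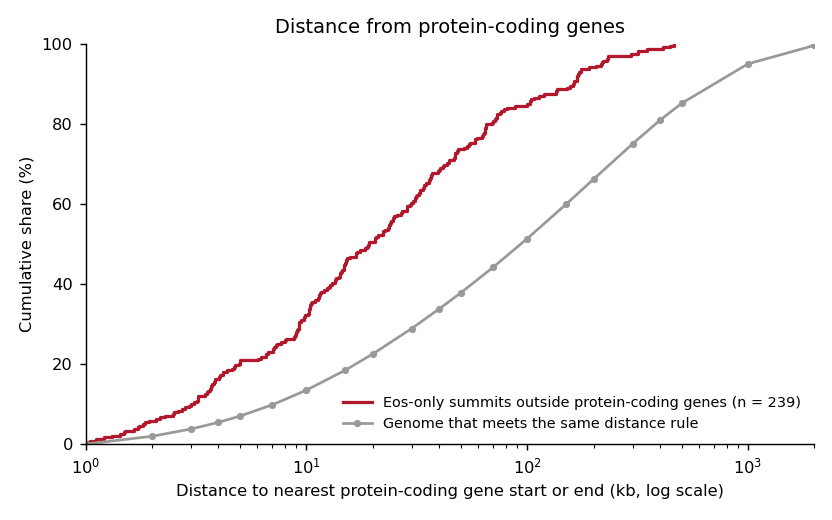
Cumulative share (y axis, percent) of the 239 distal Eos-only summits (step line) and of the eligible genome (grey points) against distance to the nearest protein-coding start or end (x axis, kb, log scale). The summits stay above the genome from 2 to 500 kb, with 32.2% of summits and 13.5% of the genome within 10 kb.

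The summits were divided between gene starts and gene ends much as the genome is. Where RefSeq strands were at hand, an analysis added after the files were seen, the nearest boundary was a gene start for 99 summits (41.4%, 35.4 to 47.8) against 40.9% of the eligible genome, and a gene end for 92 (38.5%, 32.6 to 44.8) against 36.1%; for 48 the strand was not given. Median folds were close at all distances: 7.13 (6.24 to 7.78) for the 77 summits within 10 kb, 6.89 (6.48 to 7.71) for the 126 between 10 and 100 kb, and 6.69 (6.17 to 7.36) for the 36 beyond 100 kb, with overlapping intervals.

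The most remote members, 14 of them over 200 kb from any protein-coding gene, included a peak 464 kb from Tox, which encodes a transcription factor of T cell development, with a fold of 5.84 from 8 fragments. A peak 350 kb from Tent5a had a fold of 9.08, and its summit was 126 bp from an anti-Helios summit. Peaks on chromosome 18 lay 443 and 413 kb from Sall3, with folds of 5.83 and 6.17, and another 319 kb from Usp25 had 7.66. A peak 175 kb from Gata3, chosen for mention after its values were seen, had 8.23 from 15 fragments and lay 117 bp from an anti-Helios summit, just past the rule's limit. The widest peaks were near Tbc1d1 (594 bp, fold 10.8), Vps37b (525 bp, 9.31), Scaf8 (468 bp, the high-background peak at Pisd-ps2), Lrp2bp (467 bp, 9.26) and Lrrc8c (458 bp, 13.0).

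Genes that are not protein-coding, which the rule did not use, were found at 80 of the 239 summits (33.5%, 27.8 to 39.7), either containing the summit or within 1 kb of it, against 14.8% of the eligible genome. Most were lncRNA genes, at 66 summits (27.6%, 22.3 to 33.6) against 11.5% of the genome. Pseudogenes, at 7 summits (2.93%, 1.43 to 5.92), had an interval that held the genome's share of 2.65%. Small nuclear, transfer, micro- and other small RNA genes were also at 7 summits (2.93%) against 0.382%, below the interval. An annotated lncRNA start, in an analysis added after the files were seen, was within 1 kb of 17 of 235 summits on chromosomes with lncRNA strands (7.23%, 4.57 to 11.3), against 0.740% of the eligible genome. The median fold was 6.93 (6.17 to 7.56) for the 80 summits at such genes and 6.98 (6.62 to 7.48) for the 159 clear of any annotated gene, and the intervals overlapped.

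**Figure D3:**
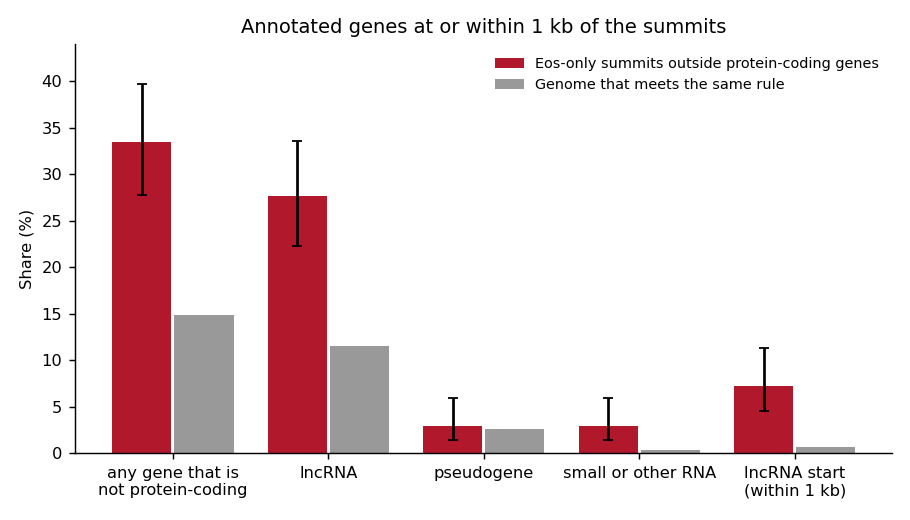
Share (y axis, percent) of distal Eos-only summits (red, with 95% Wilson intervals) and of the eligible genome (grey) in or within 1 kb of each kind of annotated gene (x axis). The lncRNA share is 27.6% of summits against 11.5% of the genome, while pseudogenes are at 2.93% and 2.65%.

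The highest folds at such genes were those already given at Gm22634, Gm9875 and Rnu2-10. Below them came a peak of 10.9 inside the lncRNA Gm36844 near E330021D16Rik, one of 10.4 from 15 fragments inside Gm12796, 26.9 kb before the start of the kinase gene Jak1, and one of 10.3 from 19 fragments at C730014E05Rik, 17.0 kb from Adipoq and 49.7 kb from the sialyltransferase gene St6gal1. A peak of 10.3 lay near the serine transfer RNA gene n-TSgct5 in a histone gene cluster beside H2bc11. Peaks inside lncRNA genes near Syne3 (9.78), C2cd5 (9.35) and Vps37b (9.31) completed the highest 10. Of these 10 peaks, the one near C2cd5 was the only one with an anti-Helios summit within 1 kb, at 578 bp.

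Some of the lncRNAs at other members have been studied by name, and these were picked after their values were seen. Pvt1, the lncRNA beyond the Myc oncogene, held a summit 103 kb from Myc with a fold of 5.15 from 9 fragments, outside the 100 kb used to assign genes. Lncpint held 2 summits less than 1 kb apart, with folds of 7.78 and 7.13. Slfn5os, beside the Schlafen gene Slfn5, held a peak of 5.11.

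A gene was given to each summit by taking the protein-coding start or end closest to it, up to 100 kb away. This gave 203 summits a gene and 183 genes a summit, 0.836% of the 21887 protein-coding genes. Of 184 genes in 7 T cell lists, 24 were the nearest gene of a summit (13.0%), with 28 summits in all, against that 0.836%. Of 38 marker genes of other blood cells (B, myeloid, erythroid, CD8 and NK), 0 were. With a share of 0.836% over all genes, a list of 38 is too short for 0 to show a lack. Nor do these lists hold every such gene: Tyrobp (fold 7.13) and Klrb1b (5.48) were nearest genes of members. The lists were chosen with earlier results of these data known, and the 21887 genes include many that T cells do not use, so the counts are descriptions. A nearest gene is a position, not a target. When the gene on the other side of the summit was counted too, 34 listed genes stood next to a summit within 100 kb, against 1.42% of all protein-coding genes. With both peak lists cut to a −log10 q of at least 5, 16 listed genes were the nearest gene of a summit. The only peaks assigned to S1pr1 (4.92), Mcl1 (4.51), Tcf7 (3.78) and Nr4a1 (3.61) had a −log10 q below 5. So had those of Tnfrsf1b (3.01), Fos (2.82), Cd5 (2.28) and Il4ra (2.16).

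**Figure D4:**
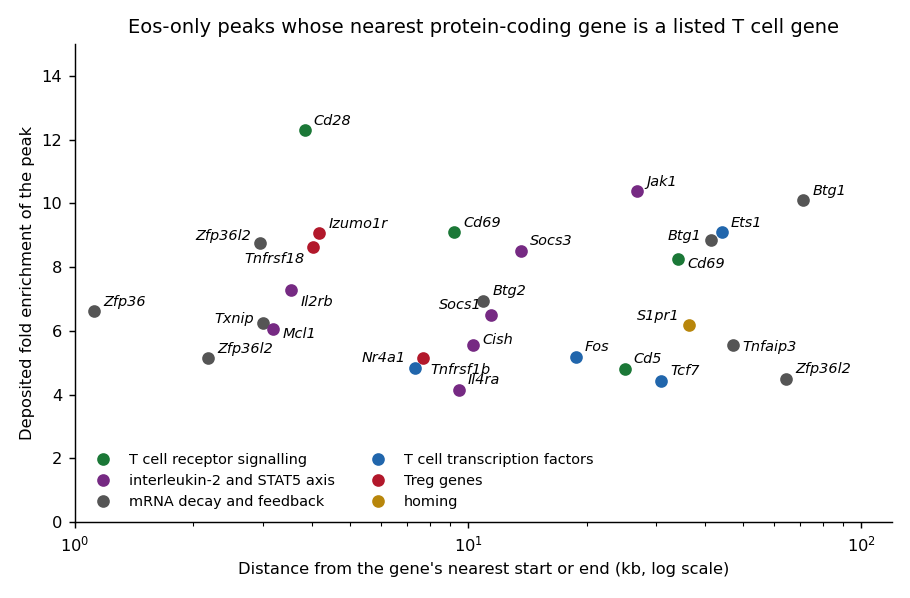
Deposited fold enrichment (y axis) of the 28 distal Eos-only peaks whose nearest protein-coding gene is in a T cell list, against distance from that gene's nearest start or end (x axis, kb, log scale); each point is 1 peak, coloured by list. Cd28 has the highest fold (12.3) and Zfp36 the shortest distance (1.12 kb).

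The interleukin-2 and STAT5 list had 7 of its 18 genes next to a distal Eos-only peak. Among receptors and kinases, Il2rb, the receptor chain that interleukin-2 and interleukin-15 share, had a fold of 7.27 from 20 fragments at 3.55 kb. Jak1, the kinase bound to that chain, had 10.4 at 26.9 kb, and Il4ra, the interleukin-4 receptor chain, 4.16 at 9.47 kb. Among feedback inhibitors induced by cytokines, Socs3 had 8.51 at 13.6 kb beyond its end, Socs1 6.50 at 11.4 kb beyond its end and Cish 5.54 at 10.3 kb beyond its end. Mcl1, the survival factor of the BCL2 family, had 6.06 at 3.19 kb beyond its end. All 3 inhibitors, Mcl1 and Il4ra had the summit on the downstream side, Jak1 had it before its start, and the strand of Il2rb was not given. Of all members, 38.5% were nearest to a gene end. The Cish summit was 105 bp from an anti-Helios summit, just past the limit of the rule, and those of Socs1 and Socs3 were 13.1 and 16.9 kb from one. Pim1, Il7r and Myc were not the nearest gene of a summit within 100 kb, although Il7r stood 45.0 kb from the peak assigned to Spef2 (4.50) and Pim1 97.0 kb from that assigned to Fgd2 (4.85).

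Regulators of mRNA decay and feedback had 6 of 20 genes with a distal Eos-only peak, and 9 such peaks. Zfp36l2, which encodes a protein that binds AU-rich mRNA and speeds its decay, had 3: folds of 8.75 at 2.95 kb and 5.15 at 2.18 kb, both in the lncRNA Gm41640, and 4.50 at 64.4 kb. The pair in Gm41640 lay less than 1 kb apart and formed a run with 2 further summits at the gene that had anti-Helios summits within 100 bp. Its relative Zfp36 had 6.62 at 1.12 kb beyond its end, just outside the 1 kb margin. Btg1 and Btg2, antiproliferative factors that act with the deadenylase complex and keep T cells quiescent, both had peaks: Btg1 8.84 and 10.1 at 41.4 and 71.2 kb beyond its end, and Btg2 6.95 at 10.9 kb beyond its end. Txnip, the thioredoxin-binding inhibitor of glucose uptake, had 6.24 at 3.01 kb and Tnfaip3, the A20 inhibitor of NF-κB, 5.54 at 47.3 kb.

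T cell receptor and costimulation genes had 3 of 35, with 4 summits. Beside Cd28 these were Cd69, an early activation antigen that holds cells in tissue by opposing S1PR1, with 9.09 at 9.22 kb and 8.25 at 34.3 kb on the opposite side in the lncRNA 2310001H17Rik, and Cd5, an inhibitory receptor of the T cell receptor pathway, with 4.81 in the lncRNA A430093F15Rik, almost equally far from Cd5 (25.0 kb) and Cd6 (25.3 kb). The Treg list had 3 of 32. Izumo1r, the folate receptor 4 of Treg cells, had 9.07 at 4.18 kb before its start, and Tnfrsf18, which encodes GITR, had 8.65 at 4.04 kb before its start, in the interval towards Tnfrsf4, which encodes OX40 (5.67 kb). The Tnfrsf18 summit was 155 bp from an anti-Helios summit, within an overlapping peak. Tnfrsf1b, which encodes TNF receptor 2, had 5.15 at 7.66 kb. Foxp3, Ikzf2, Ikzf4, Ctla4 and Il2ra were not the nearest gene of any member. Ikzf2 stood 81.5 kb from the peak assigned to Spag16, with a fold of 6.24.

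T cell transcription factors had 4 of 36: Ets1 with 9.10 at 44.2 kb, between it and Fli1 (48.6 kb), Fos with 5.19 at 18.8 kb, Nr4a1, an immediate early gene of receptor stimulation, with 4.85 at 7.30 kb, and Tcf7 with 4.44 at 31.0 kb before its start, in the lncRNA Gm30217. The Fos, Nr4a1 and Tcf7 peaks were among those with a −log10 q below 5, and that at Fos rested on 7 fragments. Of homing genes 1 of 24 had a peak, S1pr1, the receptor for exit from lymphoid organs, with 6.17 at 36.4 kb, and Ccr7 stood 48.9 kb from the peak assigned to Smarce1 (6.65). Of 28 effector T helper genes 0 were the nearest gene of a summit. Since 0.836% of all protein-coding genes were, a list of 28 is too short for 0 to show a lack.

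Some of the assigned genes also had anti-Eos peaks of their own. Of the 183 genes, 33 had an anti-Eos summit in the gene or within 1 kb of it, where 3.68% of all protein-coding genes had one, and these were the nearest genes of 38 members. This comparison was added after the files were seen, and both sets of peaks come from the same library. For 18 genes 2 or more members were assigned, and for Emsy and Zfp36l2 3 were.

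Of the distal Eos-only peaks, 39.7% (33.8 to 46.1) had another anti-Eos summit within 50 kb, against 34.7% (31.0 to 38.6) of the other Eos-only peaks, a difference of 5.08 percentage points whose Newcombe interval of −2.07 to 12.4 held 0. When both peak lists were cut to a −log10 q of at least 5, the difference was −0.478 (−8.26 to 7.95). When members less than 1 kb apart were joined they formed 229 separate sites. Runs of 3 or more anti-Eos summits, each within 50 kb of the next, numbered 20 where they held a member, and took in 34 members.

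In 3 of these runs every summit was a distal Eos-only peak, and a run at Mcl1 came close. Between Lrrc32, which encodes GARP, the Treg surface protein that anchors latent TGF-β, and Emsy, 3 summits lay within 2.55 kb, at chr7:98562352-98562477, chr7:98563112-98563354 and chr7:98564793-98564985. Their folds were 5.46, 4.85 and 6.49 from 11, 13 and 11 fragments. They were 22.2 to 24.8 kb beyond the end of Emsy and 60.5 to 63.1 kb from Lrrc32, and an enhancer that acts on Lrrc32 in Treg cells is known from this interval. Between Il4ra and Il21r, both cytokine receptor genes, peaks of 4.16 and 4.68 lay 9.47 kb from Il4ra and 9.07 kb before the start of Il21r, and the other peak of the run, with 5.46, lay 1.21 kb beyond the Il21r end. On chromosome 1 the Btg2 peak stood in a run of 3 over 38.3 kb with peaks assigned to Fmod (6.57, at the lncRNA Gm19497) and Chit1 (6.81), which were 13.9 and 20.1 kb from Btg2 on either side. Beside Mcl1, 3 members with folds of 6.06, 6.17 and 4.50 followed a summit of 7.50 within the gene.

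**Figure D5:**
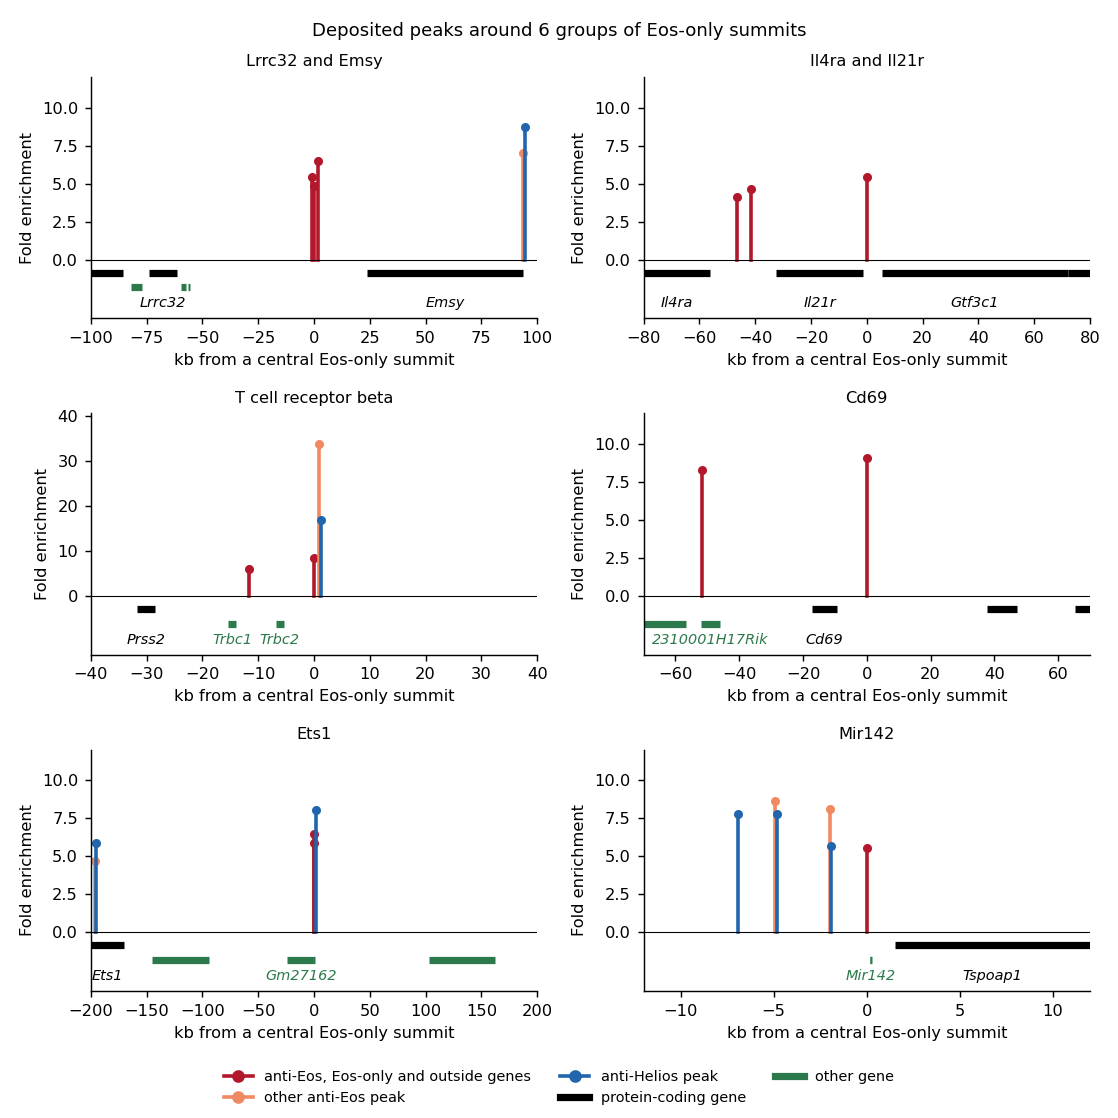
Deposited peaks in 6 stretches, drawn as stems at the summit with height as fold enrichment (y axis) against distance in kb from a central distal Eos-only summit (x axis); bars below are annotated genes, and anti-Helios stems are moved slightly to the right to show both. The 3 summits between Lrrc32 and Emsy have no anti-Helios peak among them, while at Ets1 and in the T cell receptor beta locus anti-Helios peaks stand within 1 kb of a distal Eos-only summit.

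In the T cell receptor beta locus 2 members lay among gene segments that RefSeq does not class as protein-coding, so that the nearest protein-coding gene was the protease gene Prss2. A peak of 8.42 at chr6:41553521-41553657 stood beside the summit with the second highest anti-Eos fold of the library, 33.7, which had an anti-Helios summit within 100 bp and lay beyond the Trbc2 constant gene, in the interval known to hold the enhancer of the locus. The member's own nearest anti-Helios summit was 913 bp away. The other member, of 6.09 at chr6:41541866-41542113, lay at the D segment Trbd2 and the J segment Trbj2-1, 12.6 kb from an anti-Helios summit. Far beyond Ets1, at 171 kb, 2 members with folds of 6.48 and 5.89 lay in the lncRNA Gm27162 on either side of an anti-Helios summit, 207 and 215 bp from it. A peak of 10.3 lay 9.77 kb before the start of Irf2bpl, whose product is a zinc finger relative of a transcriptional corepressor. It stood at one end of a run of 4 summits over 83.6 kb. At the other end was a peak of 10.6, nearest to Lrrc74a (42.0 kb) and 69.7 kb from Irf2bpl. Between them, a summit of 9.65 had an anti-Helios summit within 100 bp. Usp3, a deubiquitinating enzyme of histones, had members of 9.68 and 9.08 at 6.58 and 22.2 kb before its start.

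Beyond the 100 bp of the rule, the nearest anti-Helios summit was over 100 kb away for 182 of 239 distal Eos-only peaks. The anti-Helios list holds only 469 peaks, and the share of the genome this far from one was not computed, so the count does not show remoteness. The nearest anti-Helios summit was within 50 kb for 20.1% of members against 22.5% of the other Eos-only peaks. It was within 10 kb for 27 (11.3%, 7.88 to 15.9) against 14.2% (11.6 to 17.2) of the other Eos-only peaks, a difference of −2.87 percentage points with a Newcombe interval of −7.43 to 2.43, so no difference was detectable over all members. This depended on the sets of peaks. When members in or within 1 kb of any annotated gene were counted with the other Eos-only peaks instead, the shares were 6.92% and 14.9%. That difference was −7.93 (−12.1 to −2.32), with both groups changed. When both peak lists were cut to a −log10 q of at least 5, the difference was 1.18 (−3.71 to 7.32). For 16 members the nearest anti-Helios summit was within 1 kb. A further count, of overlap, gave 11 members that overlapped an anti-Helios peak although the summits were more than 100 bp apart. Conversely, of 294 anti-Eos summits outside protein-coding genes, 55 had an anti-Helios summit within 100 bp, and of 93 such anti-Helios summits 38 had no anti-Eos summit within 100 bp.

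At the rule's limits, the members nearest the 100 bp limit were those near Psd2 (102 bp, fold 7.72), Cish (105 bp, 5.54) and Fam187b (105 bp, 5.20). The peaks just left out were near Gimap1 (88 bp, 10.3), Dad1 (92 bp, 6.24) and Irf1 (92 bp, 8.23). At the gene margin the members nearest the limit were those near Gm8369 (1031 bp, 5.59), Tedc1 (1046 bp, 4.50) and Zfp36 (1116 bp, 6.62). Those just left out were near Ep300 (813 bp, 9.26), Cd2 (871 bp, 6.17) and Trerf1 (996 bp, 6.65).

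The distal Eos-only peaks were spread over every chromosome but unevenly. For 5 chromosomes the interval lay above the share of the eligible genome. Chromosome 12 held 22 (9.21%, 6.16 to 13.5) against 4.72% of that genome, and chromosome 11 held 20 (8.37%, 5.48 to 12.6) against 3.88%. Chromosome 10 held 17 (7.11%, 4.49 to 11.1) against 4.44%, chromosome 9 held 16 (6.69%, 4.16 to 10.6) against 3.91%, and chromosome 17 held 14 (5.86%, 3.52 to 9.59) against 3.34%. Of all 1106 anti-Eos peaks, 118 were on chromosome 11, 82 on 10, 61 on 17, 58 on 12 and 57 on 9. Members were thus 22 of 58 on chromosome 12, 16 of 57 on 9, 14 of 61 on 17, 17 of 82 on 10 and 20 of 118 on 11. Of all anti-Eos peaks, 21.6% were members. Whether an excess is particular to the distal peaks was not tested. Each interval was read singly, without allowance for the number of chromosomes. For X and Y the interval lay below the share of the eligible genome. Chromosome X held 1 of 239 (0.418%, 0.0739 to 2.33) against 7.54% of the eligible genome, and chromosome Y 1 against 5.38%. Of the other Eos-only peaks, 9 of 304 near gene starts or ends (2.96%) and 6 of 296 in gene bodies (2.03%) were on X. The sources used here do not give the sex of the mice, and the parts of copy number and of repeated sequence in these shares were not tested.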

How the data were processed

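Members and gene lists were chosen with earlier results of these data known. Per the submitters' processing notes, the tools were BWA 0.7.1, SAMtools 1.17, Picard, deepTools 3.5.1 and cutadapt 4.4, and the builds GRCm38.p6 and mm10. Which program called peaks, how, and against which control is not given in the sources used. The authors deposited 1 peak list per library, unpooled, each line holding a ratio (fold enrichment over background), a −log10 p-value, a −log10 q-value, an integer score that is 10 times the −log10 q without its decimals, and the summit offset. The deposited −log10 q started at 2.08 (anti-Eos) and 2.24 (anti-Helios), and weaker signal is not in the lists. Folds were used only to describe and rank peaks within the anti-Eos list.

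The number of fragments under each summit was worked out from the authors’ fold and p-value, with a Poisson upper tail for p and 1 added to both fragments and local background for the fold. This form was inferred, since it met both values for 100% of anti-Eos peaks (relative tolerance 0.0001). A control fragment counted as 0.943, and the smallest local background was 0.542. PCR copies are not independent molecules, so intervals and floors cover counting error only.

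Genes came from the RefSeq table of GRCm38.p6 (49943 genes on chromosomes 1 to 19, X and Y, 21887 of them protein-coding). That table has no strand or exons; strands came from the RefSeq promoter table, which matched 17492 protein-coding and 9533 of 12727 lncRNA genes. Shares of the eligible genome were counted base by base between the outermost annotated genes of each chromosome. Intervals of 95% are Wilson's for shares, Newcombe's for their differences and from order statistics for medians. Scripts (Python 3.11.15, numpy 2.4.6, pandas 2.3.3, scipy 1.17.1) were tested on simulated data. Named peaks were the 15 highest folds, those next to listed genes (at most 20 by fold, and the remaining 8 added so that every listed neighbour is given), those in runs of 3 or more summits, the 10 highest at other kinds of gene, the 3 on each side of each limit, and the 5 widest and 5 farthest from a gene; others are named as chosen after their values were seen. Sequences other than RefSeq promoter windows and microRNAs were not used here.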

Additional observations from a re-analysis of the deposited data

How the results depend on the processing

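With 1 library per group, no replicate could be left out, and no paired analysis was possible because each group has 1 library. Of the alternatives, 45 values were classed as the same, 6 as moved, 2 as reversed in sign and 1 as stronger. Counts and medians have no direction. Some counts classed as the same were smaller, such as 162 members against 239 with the −log10 q cut given below. Taking only summits clear of any annotated gene left 159 members, and the remaining 80 were counted with the other Eos-only peaks. Between these sets the difference in the share with an anti-Helios summit within 10 kb was −7.93 percentage points (−12.1 to −2.32). That interval was without 0, but the comparison group had changed along with the members. Cutting both the anti-Eos and the anti-Helios list to a −log10 q of at least 5 gave 162 members and raised the median fold to 8.04, as a cut on strength must. It also made peaks Eos-only whose anti-Helios neighbour was no longer listed. With those lists the difference in the share with another anti-Eos summit within 50 kb was −0.478 percentage points. That with an anti-Helios summit within 10 kb was 1.18. Both were of the opposite sign, and the cause was not tested. The share near a protein-coding gene followed the distances by construction: 15.2% within 10 kb with a margin of 5 kb, 20.1% within 5 kb and 73.6% within 50 kb. With assignment limited to 10 kb, 12 listed genes had a member, and with both lists cut to a −log10 q of at least 5, 16 had. The share with a −log10 q of at least 5 has no value under that same limit, nor the share at other genes when these are left out, so neither was run. With a median of 13 fragments a peak, the depth limits the order of single folds.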
